A study of Homo sapiens with 4 samples.

Results

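The genes of the IKK complex, of its relatives and of the kinases that act on it were followed in BEAS-2B, an established cell line from human bronchial epithelium whose genotype is labelled wild type in every condition. A fixed list, chosen with earlier results of these data known, gave the 10 members by symbol, out of 24424 symbols in the count files. They were CHUK, IKBKB and IKBKG of the IKK complex, the IKK-related kinases IKBKE and TBK1, MAP3K7, TAB1 and TAB2 of the TAK1 complex, and the MAP3 kinases MAP3K8 and MAP3K14. RNA sequencing gave 4 libraries with 1 library per condition. Control cells had no treatment, and cells of the LPS library received lipopolysaccharide (LPS), a component of the bacterial outer membrane, for 2 hr. WT PDZ+LPS cells received a peptide built on a PDZ domain of the tight junction protein ZO-1 for 24 hr and then LPS for 2 hr, and mut PDZ+LPS cells received the peptide with a pair of glycines replaced by alanines on the same schedule. Values are given below in the order Control, LPS, wild-type peptide (WT PDZ+LPS) and mutant peptide (mut PDZ+LPS) wherever 4 of them stand together. Neither peptide was sequenced without LPS, so a response to peptide alone was not analysed here.

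The IKK complex is the gate of NF-kB signaling. Its catalytic subunits, IKK alpha (CHUK) and IKK beta (IKBKB), are held by the regulatory subunit NEMO (IKBKG), and the complex phosphorylates the inhibitors that keep NF-kB in the cytoplasm. Downstream of Toll-like receptors it is switched on by the TAK1 kinase (MAP3K7), which works with the activator TAB1 and the ubiquitin-binding adaptor TAB2. TPL2 (MAP3K8) is a kinase above ERK that is held by the NF-kB precursor protein NFKB1 and freed by the IKK complex. NIK (MAP3K14) acts on IKK alpha in the non-canonical pathway, and TBK1 and IKK epsilon (IKBKE) phosphorylate interferon regulatory factors. Most of this signaling runs through phosphorylation, ubiquitin and protein turnover, which RNA counts do not measure.

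The deposited values are raw read counts, which summed to between 19682929 (mutant peptide) and 25155647 (LPS) per library. They were divided by geometric size factors of 0.851 to 1.15, and 1 was added to each normalized count before log2. A gene was called higher or lower where the fold was at least 2 and at least 1 of the compared libraries had 16 normalized counts or more. With 1 library per condition, differences could not be set against replicates and no p-values were computed. The 95% counting intervals are exact binomial (Clopper-Pearson) for a fold and exact Poisson for a level. They cover counting error only, and without molecular identifiers the reads are not independent molecules. All 8 epithelial keratin and adhesion markers averaged at least 16 normalized counts. Among leukocyte markers, PTPRC had 0 counts in every library and CD14 and CD68 averaged at least 16, while 0 of 3 endothelial and 1 of 4 fibroblast markers did so (COL1A1). In a bulk library, a change in the RNA of every cell and a change in the share of cells that make it cannot be told apart.

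Before the counts, the start-site sequences of both members that were called higher with LPS are shown, since both genes were higher with LPS but carry different letters there. RefSeq promoter entries (GRCh38.p14, 250 bases before to 50 after a start) were matched for 9 of the 10 members, with 15 entries, the exception being IKBKB. They were searched on both strands for a kappaB motif (GGG, then any 3 bases, then TTCC), an AP-1 motif (TGANTCA), a GC box (GGGCGG) and a TATA motif (TATAAA), which are held by 6.52%, 7.71%, 45.0% and 11.5% of all 35116 promoter entries. MAP3K8 has 3 entries, and the entry with the most matches is shown, at chr10:30433934-30434233 on the plus strand. IKBKE has 1 entry, at chr1:206470226-206470525 on the plus strand. Every match is in capitals.
MAP3K8: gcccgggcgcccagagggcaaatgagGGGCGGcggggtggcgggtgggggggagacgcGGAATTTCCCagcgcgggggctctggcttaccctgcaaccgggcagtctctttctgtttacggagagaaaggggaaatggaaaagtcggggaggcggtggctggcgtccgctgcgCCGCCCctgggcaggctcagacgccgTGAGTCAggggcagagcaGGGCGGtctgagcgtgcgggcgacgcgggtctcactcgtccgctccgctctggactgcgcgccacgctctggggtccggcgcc
IKBKE: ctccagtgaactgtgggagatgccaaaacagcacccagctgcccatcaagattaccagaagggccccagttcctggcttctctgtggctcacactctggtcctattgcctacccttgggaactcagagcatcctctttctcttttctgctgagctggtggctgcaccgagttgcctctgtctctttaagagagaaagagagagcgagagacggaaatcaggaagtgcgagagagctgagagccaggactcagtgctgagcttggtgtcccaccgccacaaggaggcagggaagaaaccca
The kappaB match in MAP3K8, GGAATTTCCC, lay on the minus strand and began 192 bases before the start. Its AP-1 match, TGAGTCA, began 51 bases before the start, and the entry held 3 GC boxes. The IKBKE entry held none of the 4 motifs. MAP3K8 was the 1 member of 9 with a kappaB match, in 2 overlapping entries of its 3. In the overlapping entry, at chr10:30433771-30434070, the match began 29 bases before the start, with 2 GC boxes and 0 AP-1 matches. The MAP3K8 entry at chr10:30434396-30434695 held none of the 4 motifs. AP-1 matches lay in MAP3K8 and in 2 of the 4 IKBKG entries, GC boxes in 6 of the 9 members, and TATA matches in 0. Counted by gene symbol, as these members are, the shares over all 27305 symbols were 7.83% for kappaB, 9.37% for AP-1, 48.3% for the GC box and 13.99% for TATA. A match is a description of letters, not evidence of a site in use. The absence of one covers only these 300 bases and the exact patterns searched, so sites with other letters would be missed.

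The largest differences among the members lay between Control and the libraries with LPS. MAP3K8 and IKBKE were called higher in LPS/Control and 0 members were called lower, against a background of 3.46% of tested genes called higher and 1.41% called lower. The median log2 fold change of the 10 members was 0.16, where it was -0.0010 over the 13072 genes that averaged at least 16 normalized counts. The plot of levels by library shows that MAP3K8 and IKBKE were far apart from their Control level in each LPS-treated library, while the other 8 genes stayed within a narrower band.

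**Figure D1:**
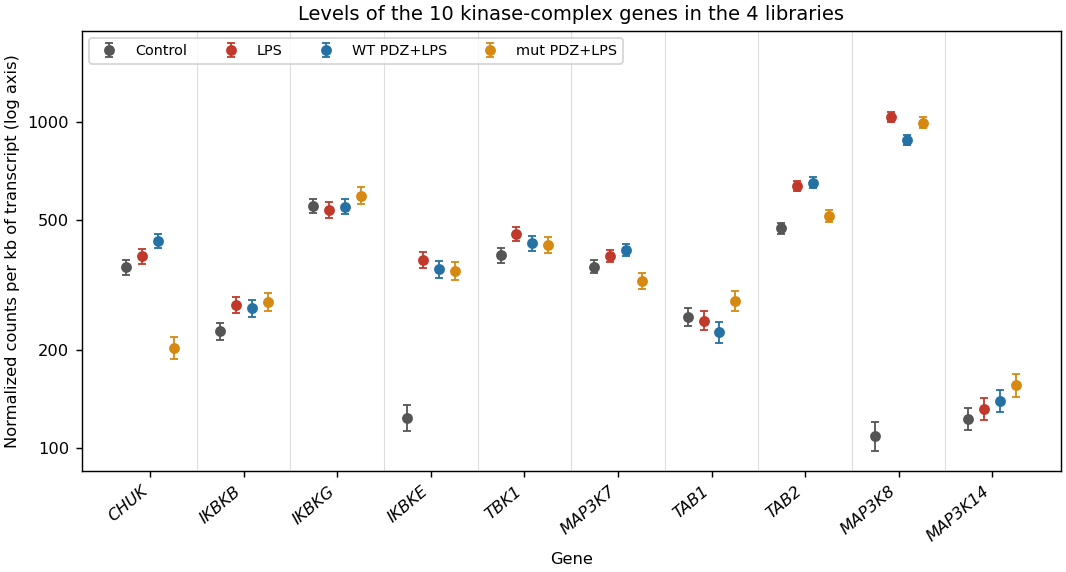
Normalized counts per kb of the longest protein-coding transcript (log axis) for the 10 genes, with points for the 4 libraries and bars for 95% Poisson counting intervals. MAP3K8 goes from 109 in Control to between 881 and 1039 in the LPS-treated libraries, IKBKE from 124 to between 349 and 377, and CHUK is lowest with the mutant peptide at 203.

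MAP3K8, the TPL2 kinase, had 387, 3418, 2700 and 2624 raw counts, or 337, 3215, 2726 and 3083 normalized counts. The 3 LPS-treated libraries lay far above Control. Its fold in LPS/Control was 9.52, a log2 fold change of 3.25 (95% counting interval, 3.10 to 3.41). With either peptide it was still called higher than Control, at 3.01 (2.86 to 3.17) with the wild-type and 3.19 (3.04 to 3.35) with the mutant peptide on the log2 scale. These values share the Control library, so they are not separate observations of the LPS response. Against Control, 3.28% of tested genes were called higher and 1.42% lower with the wild-type peptide, and 5.13% higher and 2.96% lower with the mutant peptide. IKBKE was the other member called in both, and 0 members were called lower.

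IKBKE, which encodes the inducible IKK-related kinase IKK epsilon, had 458, 1292, 1126 and 958 raw counts. These were 399, 1215, 1137 and 1126 normalized counts, so Control was again the low library and the LPS-treated libraries lay close together. The log2 fold change in LPS/Control was 1.61 (1.45 to 1.77), a fold of 3.04, with 1.51 (1.35 to 1.67) and 1.495 (1.34 to 1.66) for the wild-type and mutant peptide libraries against Control. Its closest relative TBK1, a kinase expressed broadly across tissues, had 1459, 1566, 1370 and 1164 raw counts, or 1270, 1473, 1383 and 1368 normalized counts. TBK1 was 0.21 (0.11 to 0.32) higher in LPS/Control on the log2 scale, below the 2-fold threshold. Within a library, the ratio of IKBKE to TBK1 per kb was 0.317 (0.285 to 0.353), 0.834 (0.774 to 0.898), 0.831 (0.767 to 0.900) and 0.832 (0.763 to 0.907). This ratio needs no size factor, and as counted it stood at nearly the same value in the 3 LPS-treated libraries. The mutant peptide library carries trends over transcript length and GC content (below), and the pair differs in GC content. Against LPS, IKBKE and TBK1 both stood at -0.11 there as counted. With both trends removed they stood at -0.17 and -0.01, and with length alone at -0.08 and -0.07.

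Among the subunits of the IKK complex, LPS alone went with small differences. IKBKB had 1065, 1188, 1082 and 970 raw counts, or 927, 1118, 1093 and 1140 normalized counts. Control was the lowest library, and the log2 fold change in LPS/Control was 0.27 (0.15 to 0.39). CHUK had 1492, 1491, 1554 and 626 raw counts, or 1299, 1403, 1569 and 736 normalized counts, with 0.11 (0.01 to 0.22) in LPS/Control. In CHUK it was the mutant peptide library that stood apart. IKBKG had 1459, 1313, 1254 and 1164 raw counts, or 1270, 1235, 1266 and 1368 normalized counts, and its difference in LPS/Control was not detectable at this depth (-0.04, -0.15 to 0.07). TBK1 and IKBKG had the same raw counts in Control and with the mutant peptide but not in the other libraries. Of the 2200 stretches of 100 bases in the longest IKBKG transcript, 974 also occur in its pseudogene copy IKBKGP1, for which no symbol is listed, so the IKBKG counts depend on how shared reads were placed and are uncertain.

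In the TAK1 complex, the adaptor was the member that moved most with LPS. TAB2 had 2470, 3072, 2942 and 1994 raw counts, or 2150, 2890, 2971 and 2343 normalized counts. LPS and the wild-type peptide were the high libraries, and the log2 fold change in LPS/Control was 0.43 (0.35 to 0.50), a fold of 1.34. MAP3K7, the kinase itself, had 2034, 2024, 1968 and 1361 raw counts, or 1770, 1904, 1987 and 1599 normalized counts, with 0.11 (0.02 to 0.19) in LPS/Control. TAB1 had 937, 846, 726 and 778 raw counts, or 815, 796, 733 and 914 normalized counts, and its difference in LPS/Control was not detectable at this depth (-0.04, -0.17 to 0.10). The ratio of TAB2 to MAP3K7 per kb was 1.31 (1.23 to 1.39), 1.64 (1.55 to 1.73), 1.61 (1.52 to 1.71) and 1.58 (1.47 to 1.69). The Control interval lay below those of the 3 LPS-treated libraries, which overlapped each other.

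MAP3K14, the NIK kinase, had 645, 641, 633 and 608 raw counts, or 561, 603, 639 and 714 normalized counts. Its difference in LPS/Control was not detectable at this depth (0.10, -0.06 to 0.26). An antisense gene, MAP3K14-AS1, overlaps 9.43% of the 100-base stretches of its transcript and had 8 to 16 counts, and whether the counting used strand is not given in the sources used here. Scaling by total counts in place of geometric size factors brought the all-gene median of this comparison down to -0.13. It turned CHUK, MAP3K7 and MAP3K14 in LPS/Control slightly below 0, to -0.02, -0.03 and -0.03, all above that median, and it left the other members of LPS/Control on the same side of 0.

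Per kb of transcript, the members changed order with LPS. In Control the level ran from IKBKG at 552 normalized counts per kb, through TAB2 at 472, TBK1 at 390, MAP3K7 at 360, CHUK at 358, TAB1 at 252 and IKBKB at 228, to IKBKE at 124, MAP3K14 at 122 and MAP3K8 at 109. Neighbours in this order whose counting intervals overlapped were TBK1 with MAP3K7, MAP3K7 with CHUK, TAB1 with IKBKB, IKBKE with MAP3K14 and MAP3K14 with MAP3K8. MAP3K8 was thus at the bottom in Control, and it ranked first in every LPS-treated library, at 1039, 881 and 996. MAP3K14 ranked last in those libraries, at 132, 139 and 156. CHUK ranked 5, 6, 4 and 9, lowest in the mutant peptide library. Levels between genes depend on the transcript taken for the length. With the mean length of all protein-coding transcripts TBK1, not IKBKG, ranked first in Control and MAP3K14 ranked last in every library, while MAP3K8 still ranked first in the LPS-treated libraries.

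The wild-type peptide was compared with LPS alone to see which members differed when the peptide preceded LPS. Between the wild-type peptide library and LPS 0 of the 10 members were called, against a background of 0.635% higher and 0.733% lower, and the members' median log2 fold change was 0.0017 against 0.0075 for all genes. In 8 members the counting interval held 0, so no difference was detectable at this depth. MAP3K8 was lower with the wild-type peptide than with LPS alone, at a log2 fold change of -0.24 (-0.31 to -0.16), with 2726 against 3215 normalized counts. CHUK was higher by 0.16 (0.06 to 0.27), with 1569 against 1403 normalized counts. Among all genes in this comparison MAP3K8 stood at the 8.201 percentile and CHUK at the 86.79 percentile. That ranking mixes genes of low and high counts, so it cannot show how rare such differences are at the counts of these genes. When 64 normalized counts were required, 6 genes were called higher and 5 lower in this comparison, in place of 84 and 97. An effect of the peptide on MAP3K8 or CHUK was not tested. The IKK-related and TAK1 genes sat between -0.12 (TAB1) and 0.06 (MAP3K7).

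**Figure D2:**
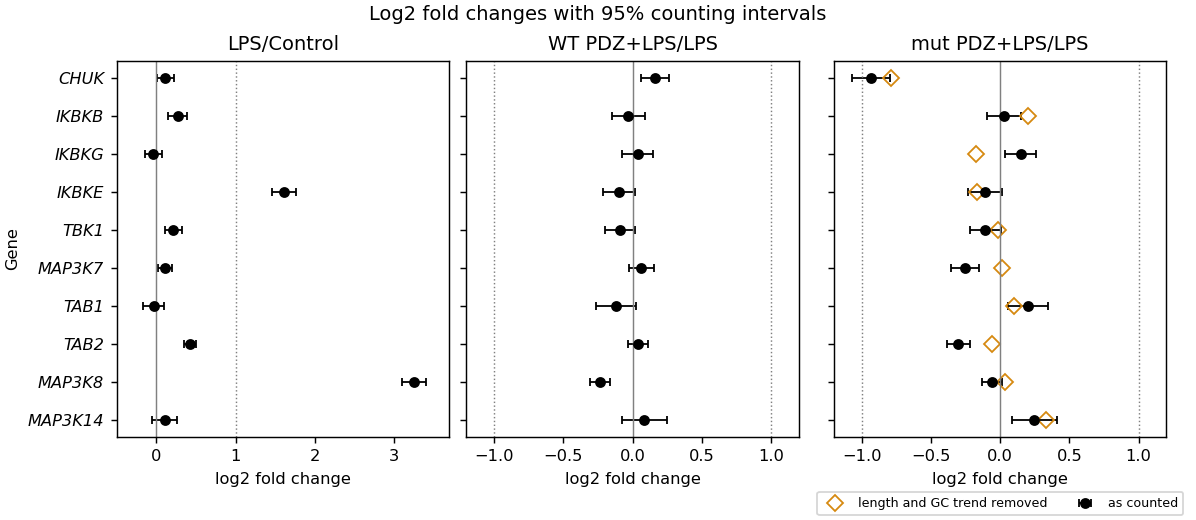
Log2 fold changes (x axis) of the 10 genes (y axis) in LPS/Control and in either peptide library over LPS, with bars for 95% counting intervals, dotted lines at 2-fold and open diamonds for the mutant peptide after the transcript length and GC trends were removed. MAP3K8 at 3.25 and IKBKE at 1.61 lie past the dotted line in LPS/Control, and CHUK in the mutant peptide panel, at -0.93 as counted and -0.79 after removal, is the member farthest from 0 in the peptide panels.

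In the mutant peptide library CHUK stood apart. Against LPS 0 of 10 members were called, against a background of 2.05% higher and 1.90% lower, but CHUK lay just inside the 2-fold threshold at -0.93 (-1.07 to -0.80), with 736 against 1403 normalized counts. The members' median was -0.08 and that of all genes -0.02. Against the wild-type peptide library it was called lower at -1.09 (-1.23 to -0.96), the only call among the members there, where 2.12% of genes were called higher and 2.14% lower. That interval also reached folds under 2. Against Control, CHUK was at -0.82 (-0.96 to -0.68). The 3 comparisons share the mutant peptide library, so they rest on 1 low value.

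The other members differed less from LPS in that library. TAB2 and MAP3K7 were lower, at -0.30 (-0.39 to -0.22) and -0.25 (-0.35 to -0.15) on the log2 scale. MAP3K14 at 0.24 (0.08 to 0.41), TAB1 at 0.20 (0.06 to 0.34) and IKBKG at 0.15 (0.03 to 0.26) were higher. For IKBKB, IKBKE, TBK1 and MAP3K8, at 0.03, -0.11, -0.11 and -0.06, no difference was detectable at this depth. Against the wild-type peptide library, TAB1 was higher by 0.32 (0.17 to 0.47) and MAP3K8 by 0.18 (0.10 to 0.26), and TAB2 and MAP3K7 were lower, at -0.34 (-0.43 to -0.26) and -0.31 (-0.41 to -0.21).

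These values stand beside a trend over transcript length and base composition in the mutant peptide library. Over 12107 genes with a transcript length, Spearman's rho of log2 fold change with length was -0.605 for the mutant peptide against LPS, 0.0752 for the wild-type peptide against LPS and 0.156 for LPS against Control. With GC content it was 0.413, -0.0873 and -0.0202 in the same order. For the mutant against the wild-type peptide, rho was -0.614 with length and 0.430 with GC content. Genes share these libraries and are not independent replicates, so the coefficients are descriptions. The median log2 fold change of the mutant peptide against LPS was 0.40 in the shortest decile of transcripts and -0.47 in the longest decile.

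The members were not unusual in length, with longest protein-coding transcripts of 2299 (IKBKG) to 4911 nt (MAP3K7) and a median of 3440.5 nt against 3479 nt over all genes. They split more clearly by GC content. CHUK, TBK1, MAP3K7, TAB2 and MAP3K8, with GC contents of 38.7% to 46.5%, were all 5 below 0 in the mutant peptide library against LPS. Of IKBKB, IKBKG, IKBKE, TAB1 and MAP3K14, at 52.0% to 62.6%, only IKBKE was below 0. Over all genes 52.1% were below 0 in this comparison. The counting intervals of TBK1, MAP3K8, IKBKE and IKBKB held 0, so the side on which these members lie is uncertain. Across the 10 members, rho for that comparison was 0.806 with GC content and -0.224 with length. For the wild-type peptide against LPS the same members gave -0.345 with GC content and 0.661 with length. All genes gave -0.0873 and 0.0752 there, so rho over 10 members can lie far from that of all genes.

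**Figure D3:**
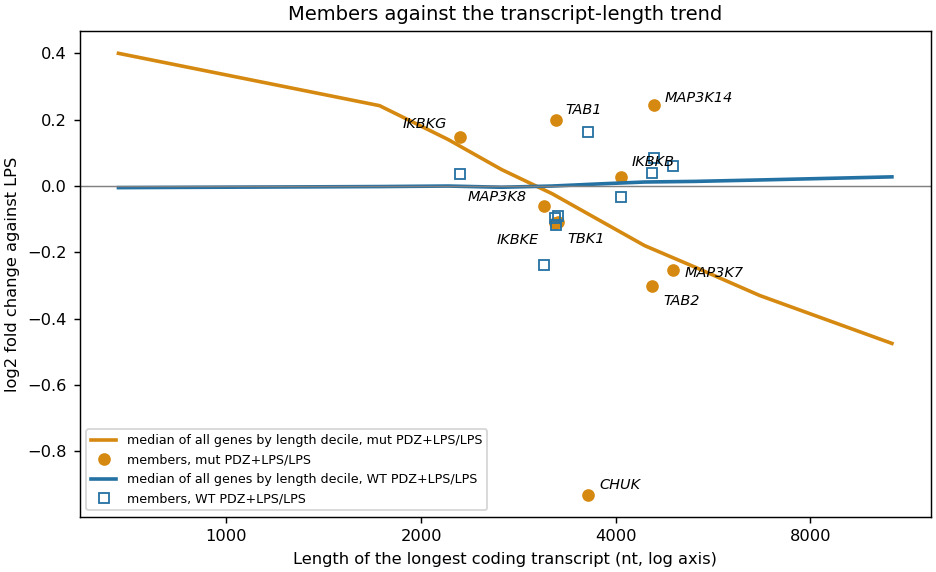
Log2 fold change against LPS (y axis) over the length of the longest protein-coding transcript (x axis, log scale), with lines for the median of all genes in each decile of length, filled points for the members with the mutant peptide and open squares with the wild-type peptide. The mutant line falls from 0.40 to -0.47 while the wild-type line stays near 0, and CHUK, at 3625 nt, lies far below the line at -0.93.

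When the trends over length and then GC content were removed, 6 of the 10 members moved toward 0 in the mutant peptide library against LPS and CHUK stayed low. Over the 12107 genes, rho in this comparison was then 0.0930 with length and 0.0038 with GC content. A small length trend of opposite sign thus remained. TAB2 went from -0.30 to -0.06, MAP3K7 from -0.25 to 0.02, TBK1 from -0.11 to -0.01 and TAB1 from 0.20 to 0.10. IKBKG changed sign, from 0.15 to -0.17, and MAP3K8 from -0.06 to 0.04. MAP3K14 and IKBKB moved away from 0, to 0.33 and 0.20, as did IKBKE, to -0.17. Among the 5 members of low GC content 3 were then below 0, and among the others 2 were, beside 50.8% of all genes. MAP3K8 and IKBKE were still called higher than Control in the LPS, wild-type and mutant peptide libraries, where 3.19%, 2.86% and 3.82% of genes were called higher after removal and 0.770%, 0.828% and 1.40% lower. No member was called after removal in either peptide library against LPS, where 0.249% and 0.745% of genes were higher and 0.348% and 0.687% lower, or between the peptides, with 0.753% higher and 0.712% lower. Over the 5 ways of removal tried, the sign of some members against LPS depended on the method. IKBKG ran from -0.20 to 0.02, TBK1 from -0.19 to 0.01, MAP3K7 from -0.04 to 0.16 and MAP3K8 from -0.06 to 0.05. IKBKE, at -0.11 as counted, ran from -0.21 to -0.08. Against the wild-type peptide library, removing length and GC content took TAB2 from -0.34 to -0.08 and MAP3K7 from -0.31 to -0.02. TAB1 went from 0.32 to 0.21 and MAP3K8 from 0.18 to 0.26 there. Over the 5 ways, MAP3K7 ran from -0.11 to 0.14 in that comparison.

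CHUK was at -0.79 after the trends over length and GC content were removed, the 1.31 percentile of the 12107 genes. Its transcript of 3625 nt was close to the median length (52.5 percentile), while its GC content of 39.1% was low (12.0 percentile). The 500 genes nearest to it in length had a median of -0.09 in this comparison, and the 500 nearest in both length and GC content a median of -0.18. Other ways of removing the trend gave CHUK values from -0.84 to -0.59, and against the wild-type peptide library from -1.01 to -0.72. CHUK was lower with the mutant peptide under each removal tried, but its call against the wild-type peptide held only where length alone was smoothed (-1.01). It was lost at -0.93 with length and GC content. A neighbouring gene on the same strand, ERLIN1, overlaps 37 exonic bases of CHUK and had 2496, 2176, 2159 and 1121 raw counts, also lowest with the mutant peptide. The part of length, composition and overlap in the CHUK value beyond these removals was not tested.

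Ratios between subunits, which do not depend on size factors, showed the same library apart. CHUK to IKBKB per kb was 1.57 (1.45 to 1.70), 1.41 (1.30 to 1.52), 1.61 (1.49 to 1.74) and 0.724 (0.654 to 0.802). Per kb of the longest transcript, CHUK was thus the higher of the catalytic pair in 3 libraries and the lower with the mutant peptide. With the mean length of coding transcripts CHUK was the lower in LPS too, at 387 against 396 for IKBKB. TAB1 to MAP3K7 was 0.699 (0.646 to 0.756), 0.634 (0.585 to 0.687), 0.560 (0.513 to 0.610) and 0.867 (0.793 to 0.948), highest with the mutant peptide. The genes of each pair differ in GC content, but removing the trends bore on them unequally. In the mutant peptide library against LPS, CHUK and IKBKB stood at -0.93 and 0.03 before removal and at -0.79 and 0.20 after it, so their gap stayed. TAB1 and MAP3K7 went from 0.20 and -0.25 to 0.10 and 0.02, so theirs mostly closed. With length alone smoothed TAB1 and MAP3K7 stood at 0.23 and -0.04, so more of their gap stayed.

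**Figure D4:**
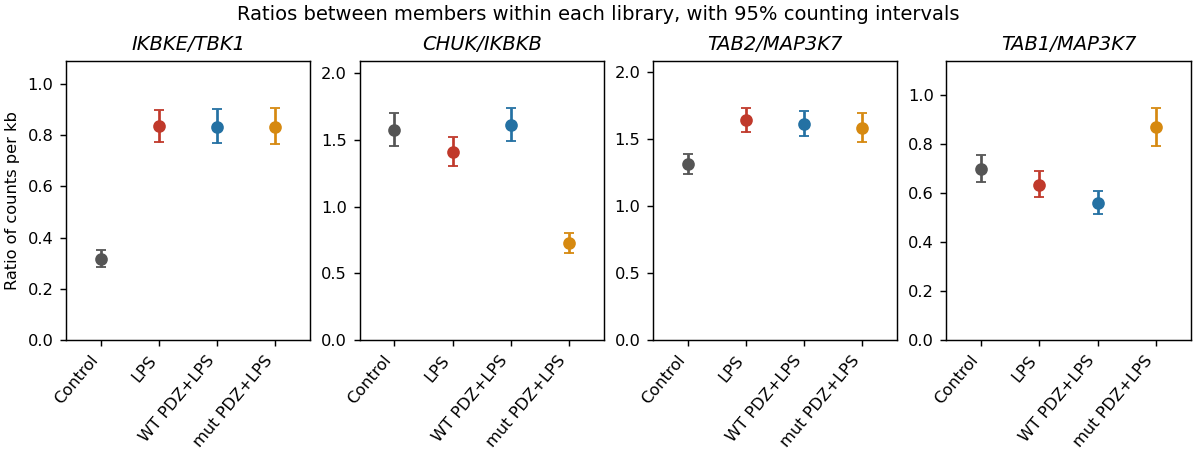
Ratios of normalized counts per kb (y axes from 0) between pairs of members within each of the 4 libraries (x axes). Bars are 95% counting intervals, and no length or GC trend was removed. IKBKE to TBK1 is 0.317 in Control and 0.831 to 0.834 in the LPS-treated libraries, and CHUK to IKBKB is 0.724 with the mutant peptide against 1.41 to 1.61 elsewhere.

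The genes around these kinases were read from a list of 50 partners, of which 49 were found and all 49 averaged at least 16 normalized counts. In LPS/Control 6 of the 49 were called higher and 0 lower, beside 3.46% and 1.41% of all genes. The list was chosen with earlier results of these data known, so this count is a description only. The partners of TPL2 and NIK gave 3 of their 6 genes. NFKB1, whose precursor protein holds TPL2, was at 2.75 on the log2 scale, NFKB2, the substrate of the NIK pathway, at 2.68 and BIRC3, a ubiquitin ligase that acts in NIK turnover, at 3.40. Above TAK1, the receptor-proximal kinases IRAK2 and RIPK2 were at 3.28 and 1.29, and below the MAP3 kinases MAP2K3, which activates p38, was at 1.83. Of the 6 adaptors of TBK1 and IKK epsilon, the 4 IKK chaperones and scaffolds, the 7 genes of the ubiquitin machinery and the 12 other MAP3 kinases, 0 were called in LPS/Control.

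MAP3K8 and its partner NFKB1 were both called higher with LPS, but not in equal measure. NFKB1 had 2194, 13655, 11422 and 6336 raw counts. The ratio of MAP3K8 to NFKB1 per kb was 0.233 (0.208 to 0.259), 0.330 (0.318 to 0.343), 0.312 (0.299 to 0.325) and 0.546 (0.522 to 0.572), highest with the mutant peptide. In that library against LPS, MAP3K8 and NFKB1 stood at -0.06 and -0.79 before the length and GC trends were removed and at 0.04 and -0.59 after, so most of their gap stayed. NFKB1 transcripts were more abundant per kb than those of MAP3K8 in every library.

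Between the wild-type peptide and Control 5 partners were called higher, the 6 above without RIPK2, whose value was 0.95, and against LPS 0 partners were called. With the mutant peptide, all 6 were called higher than in Control. Over all genes these shares were 3.28% higher for the wild-type peptide against Control, 0.635% higher and 0.733% lower for it against LPS, and 5.13% higher for the mutant peptide against Control. Against LPS and against the wild-type peptide 1 partner was called lower there, ERC1, a scaffold of the IKK complex, with 3267, 3342, 2984 and 1010 raw counts. ERC1 was at -1.40 (-1.51 to -1.30) and -1.34 (-1.45 to -1.24) in these comparisons, and at -0.88 and -0.80 after length and GC content were removed, which ended both calls. As 1 of 49, it stands beside 1.90% and 2.14% of all genes called lower in these comparisons, about the same share. MAP3K9, a mixed-lineage MAP3 kinase, was called lower with the mutant peptide than in Control together with ERC1, at -1.10 and -1.26, and after the removal at -0.63 and -0.81 neither was. Over all genes 2.96% were called lower there.

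**Figure D5:**
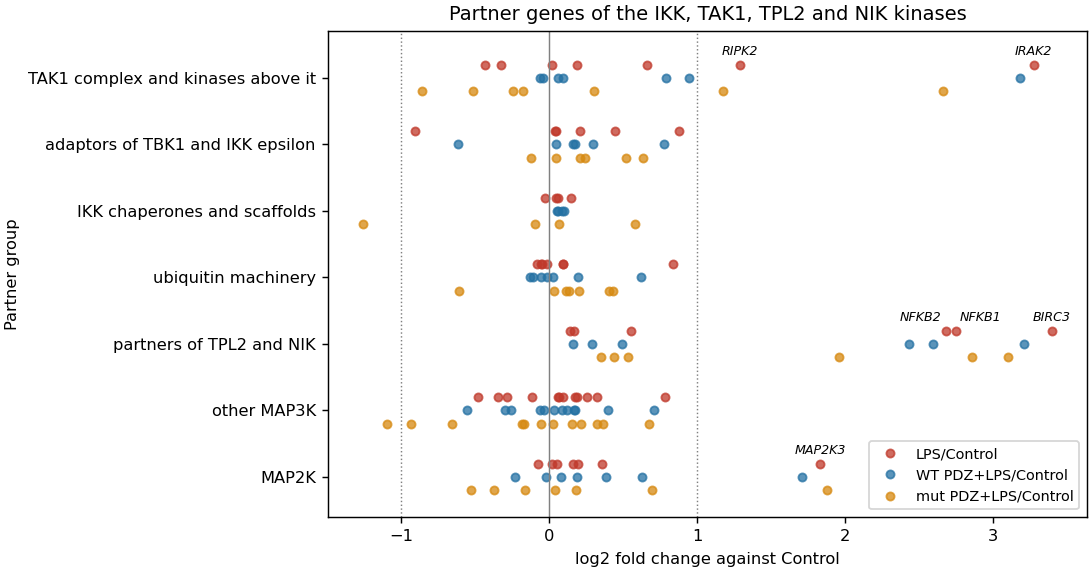
Log2 fold change against Control (x axis) of the 49 partner genes in 7 groups (y axis), with points for the 3 LPS-treated libraries and dotted lines at 2-fold. The named genes, from RIPK2 at 1.29 to BIRC3 at 3.40, are those called higher in LPS/Control, and the other groups stay inside the dotted lines there.

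The genes whose levels ran closest to MAP3K8 over the 4 libraries were TNFAIP8, TLR2 and FOXC1, with root mean square differences of 0.014, 0.030 and 0.089 in centred log2 normalized counts. TLR2, a receptor for bacterial lipoproteins, had 240, 2230, 1764 and 1705 raw counts. Closest to IKBKE were PLK2, ALDH1A3 and PSTPIP2, at 0.024, 0.043 and 0.067. With 4 libraries such a likeness is a description of these levels and nothing more.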

How the data were processed

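RNA from BEAS-2B cells was sequenced after poly(A) selection as paired-end reads from a directional kit, 1 library in each of 4 conditions. The authors trimmed adapters and low-quality reads, mapped with TopHat to hg19 according to the submitters' processing notes, and deposited raw counts of reads by gene symbol. The annotation, the counting tool and its strand setting are not given in the sources used here. The methods name FPKM and geometric normalization, but the deposited counts are whole and their totals differ between libraries, so they were normalized here.

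Size factors came from DESeq2 1.42.0 in R 4.3.3, without its test. Fold changes used a pseudocount of 1. Calls needed a fold of 2 and 16 normalized counts in at least one library, with 13236 to 13434 genes tested per comparison and 6 comparisons. Background medians used the 13072 genes averaging at least 16 normalized counts. Transcript length and GC content came from the longest protein-coding transcript in GENCODE 29 (12107 of those genes), and a lowess trend (span 0.3) over length and then GC content was subtracted. The promoters were RefSeq entries on GRCh38.p14, and their coordinates were not converted to hg19. Every member is named. Partners are named where called, otherwise by the highest and lowest value of their group in LPS/Control. For each member called in LPS/Control the 3 genes of closest level are named. The members and lists were chosen with earlier results of these data known. The alternatives were scaling by TMM (edgeR 4.0.16), by the upper quartile or by totals, a pseudocount of 5, a rule of 64 normalized counts or none, folds of 1.5 and 3, length alone, and the 500 genes nearest in length. Removal by the 500 genes nearest in length and GC content, and by the mean length of coding transcripts with GC content, was chosen after the data were seen. The calls, the counting intervals and the removal of the length trend were tested on simulated data with known changes and Poisson error only. No GC trend was simulated, so the removal of a GC trend was not tested there. Python 3.11.15 was used with statsmodels 0.14.6, scipy 1.17.1, matplotlib 3.10.9, pandas 2.3.3 and numpy 2.4.6.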

Additional observations from a re-analysis of the deposited data

How the results depend on the processing

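Each condition had 1 library, so no library could be left out and a low or high library cannot be told apart from its condition. No paired analysis was possible because each condition had 1 library and the labels give no replicate numbers. Under TMM, upper-quartile and total-count scaling, a pseudocount of 5, no expression rule, the stricter rule of 64 normalized counts and the removal of length alone, all 12 counts of called members stayed as reported. A fold of 3 left 1 member called higher, in place of 2, for either peptide library against Control (MAP3K8). There, 227 of 13284 tested genes were called higher with the wild-type and 322 of 13434 with the mutant peptide. Between the peptide libraries a fold of 3 left 0 members in place of 1 called lower, where 55 of 13372 tested genes were. A fold of 1.5 gave 1 member called lower, in place of 0, for the mutant peptide against Control and against LPS (CHUK), where 1613 of 13434 and 1311 of 13378 tested genes were called lower at that fold, about the same share. The call of CHUK between the peptide libraries went to 0 on removing length and GC content, with the 500 genes nearest in length, and, both chosen after the data were seen, with the 500 nearest in length and GC content and with mean transcript length and GC content. Total-count scaling moved the median of all genes to -0.13, -0.12 and -0.12 for LPS, the wild-type and the mutant peptide against Control, and gave 388 higher and 274 lower, 362 and 273, and 608 and 567 genes, in place of 460 and 187, 436 and 189, and 689 and 398. No called value changed sign under the alternatives run. Between the wild-type peptide library and LPS, 8 of 10 member intervals held 0. Such intervals cover counting error only and do not tell an absent difference from one too small for this depth.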

Other observations

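In the partner groups without a call in LPS/Control, the genes at the ends of each group were as follows. Among the adaptors of TBK1 and IKK epsilon, TRAF3, which links receptors to these kinases, had 1336, 2272, 1975 and 1418 raw counts in Control, LPS, wild-type and mutant peptide libraries. Its log2 difference between LPS and Control was 0.88 (95% counting interval, 0.78 to 0.98). The adaptor TBKBP1 was at the other end with 228, 112, 128 and 155 raw counts and -0.91 (-1.25 to -0.58). In the ubiquitin machinery, CYLD, the deubiquitinase that removes chains read by NEMO and TAB2, was highest at 0.84 (0.73 to 0.95), with 1166, 1930, 1546 and 949 raw counts, and UBE2V1 was lowest at -0.08. Among the other MAP3 kinases MAP3K5 was at 0.78 (0.64 to 0.93) and MAP3K9 at -0.48 (-0.65 to -0.31). The chaperones and scaffolds ran from -0.02 (HSP90AA1) to 0.14 (ERC1).

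TAB3, a relative of TAB2 that can take its place beside TAK1, had 1063, 1553, 1582 and 972 raw counts in the same order, and LPS was above Control by 0.66 (0.55 to 0.77) on the log2 scale. It was named after its values were seen. The ratio of TAB2 to TAB3 per kb was 3.40 (3.17 to 3.66), 2.90 (2.73 to 3.08), 2.72 (2.56 to 2.90) and 3.01 (2.78 to 3.25).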
